A study of Mus musculus with 13 samples.

Results

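The interleukin-1 (IL-1) family was followed through 10 of the 49315 genes counted in every library. They were chosen by name, with earlier results of these data known. The ligands were Il1a, Il1b, Il18 and Il33, and the receptor chains Il1r1, Il18r1, Il18rap and Il1rl1. The decoy receptor was Il1r2 and the receptor antagonist Il1rn. RNA-Seq had been performed on whole midbrains of 13 male mice, 1 library per mouse, aged 8 to 12 weeks. All mice carried Ripk3fl/fl, and all had received tamoxifen (60 mg/kg on 5 days) at least a week before further treatment. In Ripk3fl/fl Aldh1l1Cre+ mice (Cre+) an inducible recombinase under the astrocyte promoter Aldh1l1 removes Ripk3, the kinase of necroptosis, from astrocytes, whereas Ripk3fl/fl Aldh1l1Cre- mice (Cre-) keep it. The dopaminergic neurotoxin MPTP (20 mg/kg) or saline was given on 5 days and tissue was harvested 3 days after the last dose, in 4 Cre+ and 3 Cre- mice with MPTP and 3 of each genotype with saline.

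IL-1 family cytokines are alarm signals of injured and innate immune cells. IL-1α and IL-1β bind the receptor IL-1R1, which with an accessory chain recruits MyD88 and IRAK kinases and activates NF-κB, and the family is held in check by a decoy receptor that binds without signaling, by a receptor antagonist and by a soluble IL-18 binding protein. In the central nervous system IL-33 is stored in the nuclei of oligodendrocytes and astrocytes, IL-1β is made mostly by microglia and invading myeloid cells, and IL-1R1 is prominent on endothelial cells.

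Upstream sequences are shown for the 4 members that passed the test of MPTP in Cre- mice and for Il1rn, which had no count in any saline library, because the comparisons of groups turn on them. Each is the 250 bases before a RefSeq start (GRCm38.p6, RefSeq), 5′ to 3′ on the strand of the gene. The start nearest the 5′ end of the gene in the counted annotation was taken; it lay within 7 bases of it in 4 of these genes, and the sole RefSeq start of Il1r2 lay 12014 bases inside the gene. Capitals mark matches, on either strand, to TTNNGNAA (C/EBP), TGANTCA (AP-1), TTCNNNGAA (STAT) or the κB motif. The windows are chr1:40085843-40086092 (Il1r2), chr1:40515112-40515361 (Il18rap), chr1:40224830-40225079 (Il1r1), chr19:29924863-29925112 (Il33) and chr2:24336610-24336859 (Il1rn), all on the plus strand.
Il1r2 promoter: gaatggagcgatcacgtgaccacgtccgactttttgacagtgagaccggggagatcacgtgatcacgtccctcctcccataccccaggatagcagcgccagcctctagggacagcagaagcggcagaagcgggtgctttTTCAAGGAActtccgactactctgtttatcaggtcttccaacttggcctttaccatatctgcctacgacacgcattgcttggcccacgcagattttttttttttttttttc
Il18rap promoter: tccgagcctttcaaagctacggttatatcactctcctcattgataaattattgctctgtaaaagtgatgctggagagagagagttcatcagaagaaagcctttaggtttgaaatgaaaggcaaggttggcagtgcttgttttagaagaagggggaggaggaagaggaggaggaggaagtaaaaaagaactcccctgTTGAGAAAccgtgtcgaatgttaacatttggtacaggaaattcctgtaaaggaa
Il1r1 promoter: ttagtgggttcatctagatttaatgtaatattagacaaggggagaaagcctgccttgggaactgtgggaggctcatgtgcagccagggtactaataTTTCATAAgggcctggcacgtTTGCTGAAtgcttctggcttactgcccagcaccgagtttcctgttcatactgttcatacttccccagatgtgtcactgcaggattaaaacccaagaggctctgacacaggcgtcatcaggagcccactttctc
Il33 promoter: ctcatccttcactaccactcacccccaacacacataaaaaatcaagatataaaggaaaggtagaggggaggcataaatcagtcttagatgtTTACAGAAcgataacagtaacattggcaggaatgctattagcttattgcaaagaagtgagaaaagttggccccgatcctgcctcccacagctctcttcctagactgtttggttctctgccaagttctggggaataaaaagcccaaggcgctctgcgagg
Il1rn promoter: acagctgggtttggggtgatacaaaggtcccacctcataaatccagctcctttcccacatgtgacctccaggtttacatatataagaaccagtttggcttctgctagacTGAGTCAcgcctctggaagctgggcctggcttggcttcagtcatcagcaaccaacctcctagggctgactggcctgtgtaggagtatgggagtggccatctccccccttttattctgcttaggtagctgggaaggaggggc

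The Il1r2 window held 1 STAT match, at -111 from the start, the Il1rn window 1 AP-1 match at -141, the Il18rap and Il33 windows 1 C/EBP match each, and the Il1r1 window 2 C/EBP matches. Over all 10 members, 6 windows held the C/EBP letters, 2 the AP-1 letters (Il1a and Il1rn), 1 the STAT letters and 0 the κB motif. Among 32851 RefSeq windows of the same length, 36.8% held the C/EBP letters, 6.75% the AP-1 letters, 7.02% the STAT letters and 7.25% the κB motif. These are matches of letters, and none of them was measured as a binding site here.

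Counts per library totalled 11489150 to 29397278 (lowest in Cre- MPTP replicate 1, where 21101 genes had a count). Levels are given as CPM, the count scaled to a common library total after TMM normalization. Cre- MPTP replicate 1 stood apart from replicates 2 and 3 of its group (r of log2 CPM 0.900 and 0.906, against at least 0.965 for every other pair within a group), and Cre+ MPTP replicate 4 held 5983 CPM summed over 6 muscle genes, against at most 134.6 CPM elsewhere. All 8 markers of dopaminergic neurons had counts in every library, with Th at 31.9 to 53.6 CPM. Slc6a3, another of them, was at 10.8 CPM in Cre- MPTP replicate 1 and at 42.3 to 77.4 CPM in the other libraries. The endothelial marker Cldn5 was at 298 CPM in that library and at 45.1 to 87.1 CPM in the others. Ripk3 ranged from 0.159 to 1.32 CPM in Cre- and from 0.224 to 0.702 CPM in Cre+ libraries, so its level in whole tissue did not separate the genotypes. With MPTP it was at 0.650, 0.713 and 1.32 CPM in Cre- and at 0.702, 0.224, 0.355 and 0.382 CPM in Cre+ libraries. In sorted cells, the paper reported no Ripk3 transcript in astrocytes of Cre+ mice and an unchanged level in CD11b+ cells. Of the members, 8 reached 10 counts in 3 libraries and entered the test with 19360 genes. Il1b and Il18r1 did not.

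Il33 was by far the most abundant member per kilobase of exon. Its mean in Cre- Saline was 36.4 CPM per kb, followed by Il18 (15.9), Il1r1 (0.716) and Il1r2 (0.321), and these 4 did not overlap in that order. Il1a (0.251), Il1b (0.0687) and Il1rl1 (0.0357) came next, and each overlapped its neighbour. Il18rap (0.00734) lay below Il1rl1 without overlap and was not separated from Il18r1 (0.00275), and Il1rn had no count. In Cre- MPTP the range of Il33 (12.8 to 25.4 CPM per kb) met that of Il18 (6.20 to 17.5 CPM per kb), and Il1rn moved from the last place to the seventh of 10. In single libraries Il33 had 340 to 3030 counts and Il18 59 to 546 counts.

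**Figure D1:**
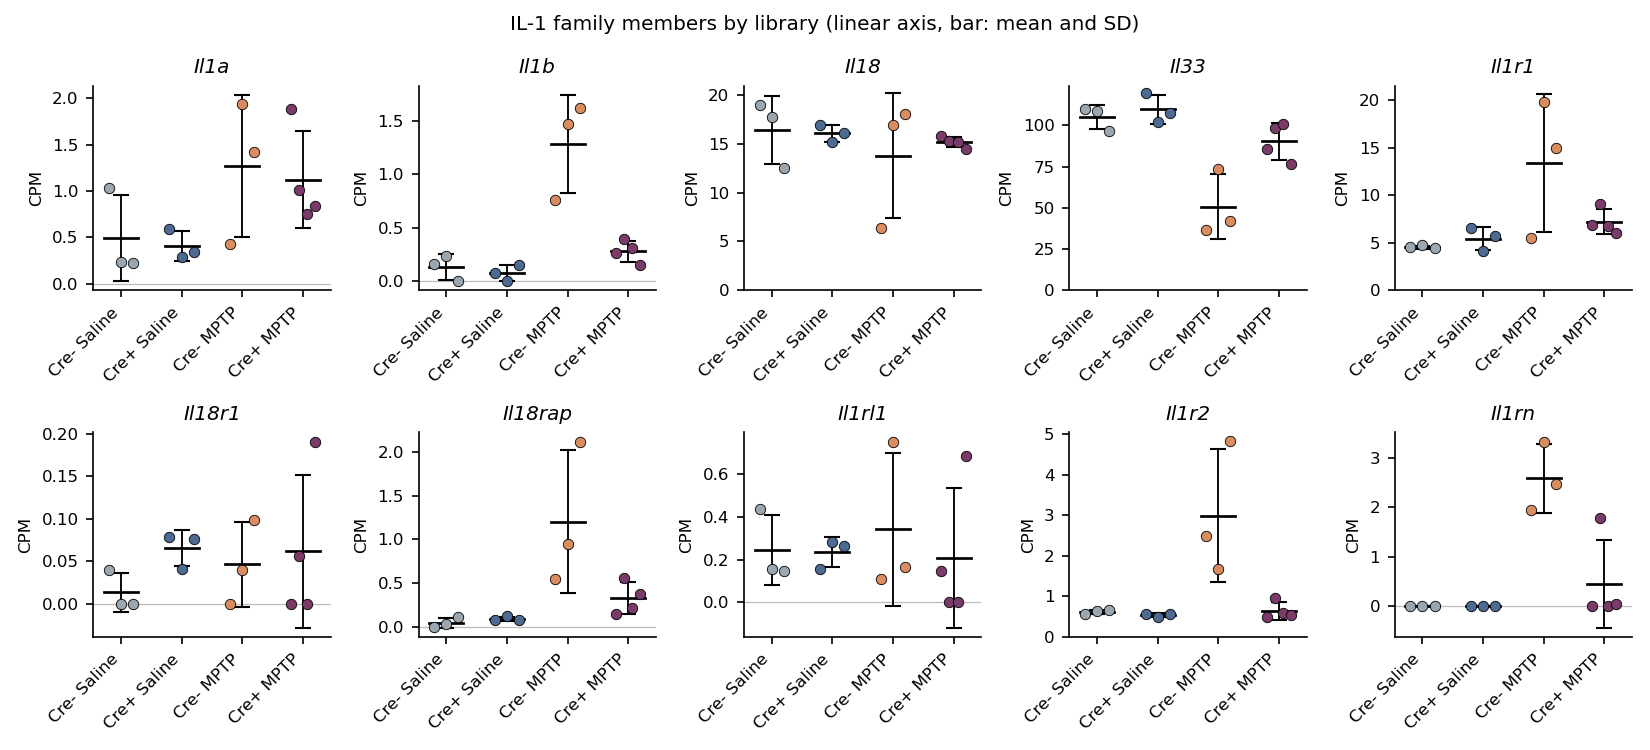
CPM of each of the 10 members (y axis, linear, own scale per panel) in the 4 groups (x axis), with 1 point per library and black bars for mean and SD. Il1r2, Il1rn and Il1b are highest in the 3 Cre- MPTP libraries, whereas Il33 is lowest there, and for Il18rap Cre- MPTP replicate 1 (0.542 CPM) lies just below Cre+ MPTP replicate 2 (0.559 CPM).

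In Cre- mice, MPTP was accompanied by higher levels of the decoy receptor Il1r2, the signaling receptor Il1r1 and the IL-18 receptor accessory chain Il18rap, and by a lower level of the ligand Il33. These were 4 of the 8 members tested at an adjusted p under 0.05, where 3.18% of all genes tested were called. The median log2 fold change of the 8 members was 1.495, against 0.03 over all genes, and it stayed at 1.495 with Il1rn set to its lower bound. CPM of the groups did not overlap for 5 members (Il1r2, Il1r1, Il18rap and Il1rn higher, Il33 lower), and did not overlap for 15.1% of all genes tested. Il18rap had at most 3 counts in any saline library and Il1rn had 0. Both passed the filter on low counts only through MPTP libraries, so their place among the 8 members tested depended on their level with MPTP. Il18rap is among the 4 calls, and both are among the 5 members without overlap.

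Among the ligands, Il33 encodes a nuclear alarmin released on cell damage. Its level was 110, 108 and 96.4 CPM in the Cre- Saline libraries and 36.8, 73.4 and 42.0 CPM with MPTP, so that the highest MPTP library lay below the lowest saline library. Il33 fell by 1.04 on the log2 scale, with an SE of 0.22 and a quasi-likelihood adjusted p of 0.0217 (edgeR). It was not called by edgeR or DESeq2 fitted to the 2 groups only. Without Cre- MPTP replicate 3 the adjusted edgeR p was 0.0732, and without Cre- Saline replicate 1, 2 or 3 it was 0.0824, 0.0915 and 0.0560, with fold changes from -0.92 to -1.10.

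Il1a, an alarmin that acts without cleavage, had 1.03, 0.234 and 0.219 CPM in Cre- Saline and 0.434, 1.94 and 1.42 CPM in Cre- MPTP. The groups overlapped through Cre- Saline replicate 1 and Cre- MPTP replicate 1, the latter with 4 counts. The log2 fold change was 1.42 (SE 0.65, edgeR adjusted p = 0.333). Exons of Il1a share 222 bases with Gm14023 on the opposite strand, and whether the counting used strand is not given in the sources used here, so the reads of the pair may not be separated.

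Il1b, the cytokine that caspase-1 cleaves into its active form, had 4, 6 and 0 counts in Cre- Saline and 7, 37 and 49 counts in Cre- MPTP. On the CPM scale these were 0.159, 0.234 and 0, and 0.759, 1.47 and 1.62, with no overlap. The pooled level was 11.2 times as high in Cre- MPTP (exact 95% interval 5.84 to 24.2 for counting error only). Il1b entered the test only when the filter on low counts was left out, where its log2 fold change was 3.28 (SE 0.80, edgeR adjusted p = 0.0444). It shares 45 exonic bases with the antisense gene Il1bos, with the same limit as for Il1a.

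Il18, which is made as an inactive precursor in resting tissue, had 19.0, 17.8 and 12.5 CPM in Cre- Saline and 6.39, 17.0 and 18.0 CPM in Cre- MPTP. Only Cre- MPTP replicate 1 lay below the saline range. The log2 fold change was -0.23 (SE 0.30, edgeR adjusted p = 0.722) and 0.10 without that library.

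Among the receptors, Il18rap, the accessory chain that completes the IL-18 receptor, had 0, 1 and 3 counts in Cre- Saline and 5, 24 and 64 counts in Cre- MPTP. Its CPM were at most 0.110 in the former and 0.542, 0.951 and 2.11 in the latter, and every MPTP library lay above every saline library. Pooled over libraries, the level was 28.1 times as high (exact 95% interval 10.6 to 105.2 for counting error only). The fitted log2 fold change was 4.49 (SE 0.78, edgeR adjusted p = 0.00655), and it depends on a reference of 4 counts in all: it was 5.67 without Cre- Saline replicate 3 and 3.80 without Cre- MPTP replicate 3, and remained called with each of the 13 libraries left out. Il18r1, the IL-18 binding chain next to it, had 0 to 3 counts in these 6 libraries, and a change was not detectable at this depth (pooled ratio 4.83, exact 95% interval 0.478 to 237.8).

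Il1r1, the receptor through which IL-1α and IL-1β signal, had 4.52, 4.73 and 4.42 CPM in Cre- Saline and 5.53, 19.8 and 15.0 CPM in Cre- MPTP. Cre- MPTP replicate 1 was only just above the saline libraries, and the other MPTP libraries were far above them. Il1r1 rose by 1.57 on the log2 scale, with an SE of 0.36 and an adjusted p of 0.0340 (edgeR), and by 1.93 without Cre- MPTP replicate 1. The call was lost in 9 of the 13 fits that left out 1 library (Cre- Saline replicates 1, 2 and 3, Cre+ Saline replicates 1 and 3, Cre- MPTP replicates 2 and 3, Cre+ MPTP replicates 1 and 3), with adjusted edgeR p from 0.0543 to 0.140.

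Il1rl1, the IL-33 receptor ST2, had 11, 4 and 4 counts in Cre- Saline and 1, 19 and 5 counts in Cre- MPTP. The libraries of the groups were intermixed. Its fitted change was 0.59 on the log2 scale, with an SE of 1.06 and an adjusted p of 0.812 (edgeR). Soluble and membrane forms of ST2 cannot be told apart in counts per gene.

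The inhibitory members were higher in every Cre- MPTP library. Il1r2, which binds IL-1 without signaling, had 0.556, 0.625 and 0.657 CPM in Cre- Saline and 2.49, 1.66 and 4.82 CPM in Cre- MPTP, with the highest level in replicate 3. Il1r2 rose by 2.29 on the log2 scale, with an SE of 0.40 and an adjusted p of 0.00683 (edgeR), by 1.73 without Cre- MPTP replicate 3, and it remained called with each of the 13 libraries left out.

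Il1rn, the receptor antagonist, had 0 counts in all 6 saline libraries of both genotypes and 18, 84 and 75 counts (1.95, 3.33 and 2.48 CPM) in Cre- MPTP. Against a floor of 3 counts per library its mean of 2.58 ± 0.695 CPM (SD, n = 3) was at least 22.4-fold higher. It did not pass the edgeR test over the 13 libraries (adjusted p = 0.126), but it did without Cre+ MPTP replicate 2 (adjusted p = 0.00186), without Cre- MPTP replicate 1 (0.0449) and in edgeR fitted to the 2 groups only (0.0243). Secreted and intracellular forms are counted together.

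**Figure D2:**
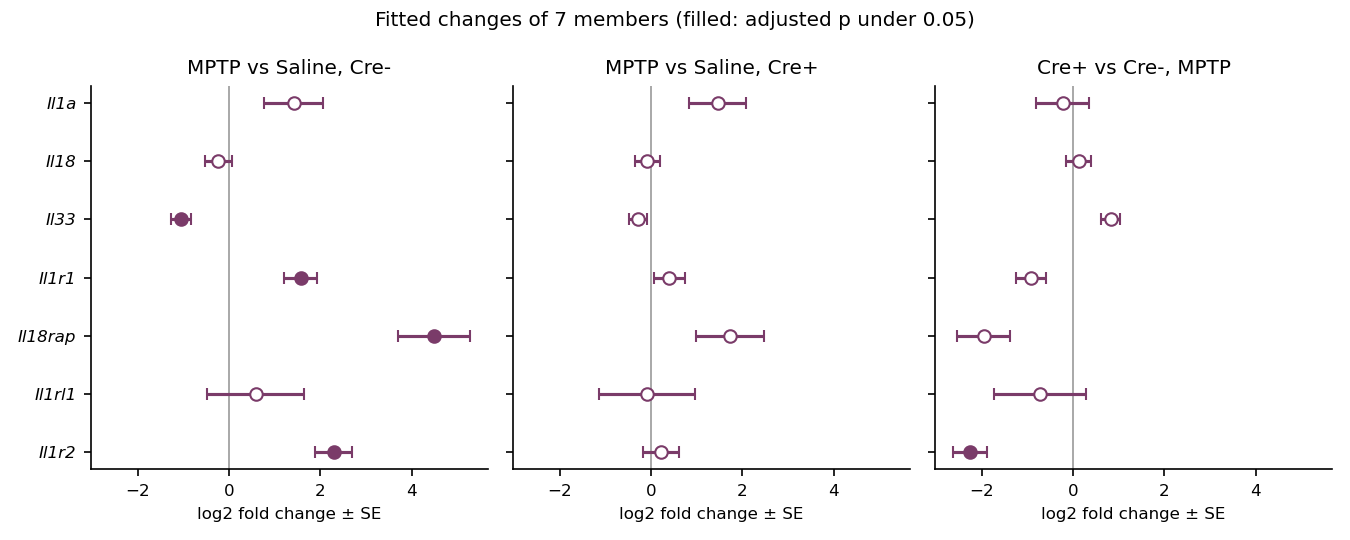
Fitted log2 fold change ± SE (x axis) of the 7 members tested other than Il1rn (y axis), in 3 comparisons, with filled points at an adjusted edgeR p under 0.05. Il33, Il1r1, Il18rap and Il1r2 are filled for MPTP in Cre- mice, none for MPTP in Cre+ mice, and Il1r2 alone for Cre+ against Cre- under MPTP.

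In Cre+ mice, which lack Ripk3 in astrocytes, 0 of the 8 members passed the test of MPTP against saline, where edgeR called 0% of all genes (672 were at an unadjusted p under 0.05). At an unadjusted p under 0.05 there were 2 members, Il18rap and Il1a. DESeq2 over 13 libraries and limma voom also called 0 members, where they called 0.441% and 1.52% of all genes. DESeq2 on the 2 groups only called 0 of the 5 members it tested and 1.74% of all genes. The paper also reported significantly higher and lower genes in this comparison. The median log2 fold change of the members was 0.31, against 0.00 over all genes. CPM did not overlap between the groups for Il18rap and Il1a (higher with MPTP) and Il33 (lower), 3 of 8 members, and for 9.66% of all genes.

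Il1r2 in Cre+ mice was 0.552, 0.488 and 0.571 CPM with saline and 0.480, 0.951, 0.577 and 0.534 CPM with MPTP, all in one range except replicate 2. Il1r1 had 6.54, 4.11 and 5.71 CPM with saline and 6.91, 9.12, 6.74 and 6.07 CPM with MPTP, and the ranges overlapped. Il33 was 119, 102 and 108 CPM with saline and 85.4, 98.2, 101 and 76.7 CPM with MPTP. The log2 fold changes of these genes were 0.22 (SE 0.39), 0.40 (SE 0.34) and -0.28 (SE 0.20).

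Il18rap in Cre+ mice had 2, 3 and 2 counts with saline and 4, 10, 5 and 10 counts with MPTP (pooled ratio 3.37, exact 95% interval 1.44 to 9.11, counting error only). Its fitted log2 fold change was 1.74 (SE 0.74, edgeR adjusted p = 1.00). The log2 fold change of Il1a was 1.46 (SE 0.63) in Cre+ and 1.42 in Cre- mice, and it passed the adjusted test in neither. In Cre+ mice Il1a had 0.591, 0.285 and 0.343 CPM with saline and 1.88, 1.01, 0.754 and 0.839 CPM with MPTP, without overlap.

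Il1rn in Cre+ MPTP mice had 0, 32, 0 and 1 counts, so that replicate 2 alone held 32 of the 33 counts. Il1b had 7, 7, 7 and 4 counts there, at 0.259, 0.392, 0.311 and 0.153 CPM. All 4 were below the lowest Cre- MPTP library (0.759 CPM).

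Compared directly under MPTP, Cre+ and Cre- mice differed in 1 of the 8 members at an adjusted p under 0.05, where 1.54% of all genes were called. That member was Il1r2, which was lower in Cre+ mice (log2 fold change -2.26, SE 0.37, edgeR adjusted p = 0.0128), with 0.480 to 0.951 CPM in Cre+ MPTP and 1.66 to 4.82 CPM in Cre- MPTP. The Cre+ MPTP mean of 0.636 ± 0.214 CPM (SD, n = 4) was near the Cre- Saline mean of 0.613 ± 0.0519 CPM (SD, n = 3). The call was lost without Cre+ MPTP replicate 1 (edgeR adjusted p = 0.0593) or replicate 3 (0.0570), with fold changes of -2.15 and -2.22, and the fold change was -1.69 without Cre- MPTP replicate 3.

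The other members did not pass. Il33 was higher in Cre+ mice by 0.83 on the log2 scale, with an SE of 0.21, an adjusted p of 0.0868 (edgeR) and no overlap, with 76.7 CPM as the lowest Cre+ and 73.4 CPM as the highest Cre- library. Il18rap had -1.96 (SE 0.58, edgeR adjusted p = 0.141), Il1r1 -0.91 (SE 0.33, edgeR adjusted p = 0.199) and Il1rn an adjusted p of 0.303, with its highest Cre+ library (1.79 CPM) just below its lowest Cre- library (1.95 CPM). Without Cre- MPTP replicate 1, Il1r1 (adjusted p = 0.00294) and Il18rap (0.0389) passed, without Cre- MPTP replicate 2 Il33 passed (0.00636), and without Cre+ MPTP replicate 2 Il1rn passed (0.00427, all edgeR). Those fits called 3.18%, 9.51% and 1.54% of all genes. Il1a (-0.23, SE 0.58), Il18 (0.12, SE 0.28) and Il1rl1 (-0.73, SE 1.01) had adjusted p of 0.667 to 0.816. The median of the 8 members was -0.82, against 0.03 over all genes, and CPM did not overlap for 3 of 8 members (Il33 higher, Il1r2 and Il1rn lower) against 11.3% of all genes.

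Il1b, outside the test, was 0.186 times as high in Cre+ as in Cre- MPTP libraries when pooled (exact 95% interval 0.114 to 0.292, counting error only). With the filter on low counts left out its log2 fold change was -2.23 (edgeR adjusted p = 0.148).

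With saline, the genotypes differed in 0 of 8 members (0% of all genes called by edgeR), with 0 members at an unadjusted p under 0.05 and 0 by DESeq2 and limma voom. CPM of the groups overlapped for all 8 members, while 11.6% of all genes did not overlap. Log2 fold changes ran from -0.27 (Il1a) to 0.80 (Il18rap), leaving out Il1rn, which had no count in either group. The test of whether the response to MPTP differed between genotypes called 0 of 8 members, where 0.0103% of all genes were called. Its log2 values were -2.75 for Il18rap (SE 1.16, adjusted p = 0.795), -2.07 for Il1r2 (SE 0.56, adjusted p = 0.293), -1.17 for Il1r1 (SE 0.49, adjusted p = 0.795) and 0.76 for Il33 (SE 0.30, adjusted p = 0.756, all edgeR), and these 4 were at an unadjusted p under 0.05. Without Cre- MPTP replicate 1 the Il1r1 value was -1.53 and passed (edgeR adjusted p = 0.0262, with 1.03% of all genes called). DESeq2 called 0 members and limma voom 3 (Il18rap, Il1r1 and Il1rn), where they called 1.19% and 3.56% of all genes. In edgeR with all 13 libraries, a response called in Cre- and not in Cre+ mice was thus not shown to differ between the genotypes for any member. The comparisons with saline and between genotypes share the Cre- MPTP libraries.

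Of the 5 members in the receptor cluster on chromosome 1 (477627 bases from the start of Il1r2 at 40074079 to the end of Il18rap at 40551705, GRCm38, all on the plus strand), Il1r2, Il1r1 and Il18rap were called in Cre- mice. Between them, Il1rl1 was tested and not called, and Il18r1 was outside the test. Il1rl1 ends 136 bases before Il18r1 begins, so these 2 neighbours with few counts lie between called genes. Il1a and Il1b lie on the minus strand of chromosome 2, 54597 bases apart, with Il1rn on the same chromosome at 24336853 to 24351494, Il18 on chromosome 9 (50554827 to 50581840) and Il33 on chromosome 19 (29925114 to 29960718).

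**Figure D3:**
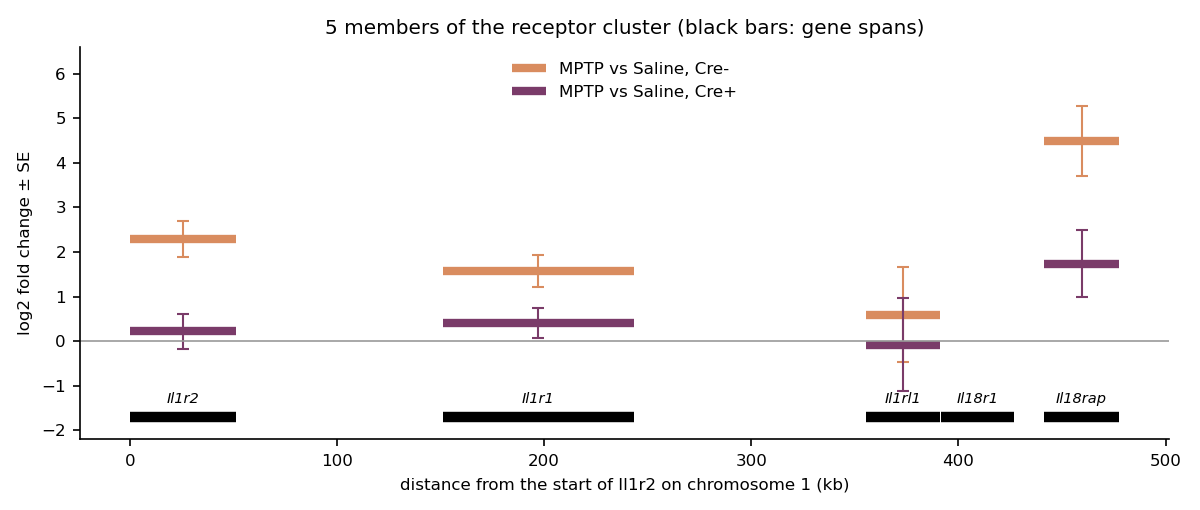
Fitted log2 fold change ± SE of MPTP against saline (y axis) for the members of the receptor cluster, drawn at their distance in kb from the start of Il1r2 (x axis), for Cre- and Cre+ mice. Il1r2, Il1r1 and Il18rap lie at 2.29, 1.57 and 4.49 in Cre- mice, Il1rl1 at 0.59, and Il18r1 has no fitted value.

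Ratios within a library do not depend on scaling. Il1r2 to Il1r1, the decoy against the signaling receptor, was 0.127, 0.136 and 0.152 in Cre- Saline and 0.456, 0.0849 and 0.323 in Cre- MPTP (counts plus 0.5). Replicate 2, with the highest Il1r1, lay below the saline libraries and the other MPTP libraries above them. In Cre+ MPTP it was 0.0720 to 0.107. Il1rn to Il1b was 2.47, 2.25 and 1.53 in Cre- MPTP, 4.33 in Cre+ MPTP replicate 2 and at most 0.333 in the other Cre+ MPTP libraries, and in saline libraries it rested on at most 6 counts. Il18bp to Il18, the soluble inhibitor against its ligand, was 0.237 to 0.401 in Cre- Saline and 0.440 to 0.933 in Cre- MPTP. Of 16 comparisons of 4 ratios, 0 passed (two-sided exact permutation test, smallest p = 0.0571, smallest adjusted p = 0.305). That p belonged to Il18bp to Il18 with MPTP in Cre+ mice, where the log2 ratio was higher by 0.38. The exact permutation test cannot go below p = 0.1 with 3 against 3 libraries, nor below 0.0286 with 3 against 4.

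Other genes of the pathway were taken from lists, which were chosen with earlier results of these data known. Of all genes, edgeR called 3.18% for MPTP in Cre- mice, 0% in Cre+ mice and 1.54% for genotype under MPTP. Of 11 other family genes, 6 were tested and 0 were called by edgeR in the comparisons of MPTP or of genotype under MPTP. For the MPTP response of Cre- mice 1 was called when their MPTP replicate 1 was left out, 1 without the filter on low counts, 1 by DESeq2 and 2 by limma voom, and for genotype under MPTP 1 was called without the filter. In Cre- mice with MPTP, 1 of them was at an unadjusted p under 0.05: Il18bp was at 4.74 ± 0.259 CPM with saline and 7.20 ± 1.08 CPM with MPTP (SD, n = 3 each), which did not pass (log2 fold change 0.61, SE 0.17, edgeR adjusted p = 0.0926). The shared accessory receptor Il1rap was at 42.3 ± 4.23 CPM in Cre- Saline and 34.2 ± 12.6 CPM in Cre- MPTP (SD, n = 3 each; edgeR adjusted p = 0.539). Il36b and Il1f10 had no count in any library.

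Of 12 genes tested for processing and release of the ligands, 2 rose and 0 fell with MPTP in Cre- mice, namely the inflammatory caspase Casp4 (2.99, SE 0.63, adjusted p = 0.0208) and Casp8 (1.05, SE 0.23, edgeR adjusted p = 0.0254). The median of the list was 1.00. The number called fell to 0 when Cre- Saline replicate 1, 2 or 3 was left out and to 1 when Cre- MPTP replicate 2 was, and it became 5 with Cre- MPTP replicate 1 left out and 4 with Cre+ MPTP replicate 2 left out. Between the genotypes under MPTP 0 of 12 were called by edgeR, with 5 at an unadjusted p under 0.05 and a median of -0.40, and 1 was called when Cre- MPTP replicate 1 or 2 was left out, 0 by DESeq2 and 2 by limma voom.

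Of 19 genes for signaling directly below the receptors, 3 rose with MPTP in Cre- mice, and 3 were lower in Cre+ than in Cre- mice under MPTP. Both comparisons use the Cre- MPTP libraries, and their values are given side by side. Irak3, a kinase-dead inhibitor of the pathway, changed by 2.89 (SE 0.39, adjusted p = 0.00202) and -2.61 (SE 0.35, adjusted p = 0.00720), Map3k8 by 1.93 (SE 0.22) and -1.44 (SE 0.20), and the adaptor Myd88 by 1.07 (SE 0.25) and -1.09 (SE 0.23). The list medians were 0.21 and -0.14, against 0.03 over all genes in each comparison. Of all genes, 3.18% and 1.54% were called. The edgeR test of whether the response to MPTP differed between genotypes called 0 of the 19, with 4 at an unadjusted p under 0.05. Without Cre- MPTP replicate 1, 6 genes of the list were called in Cre- mice. The 3 calls between the genotypes became 0 with edgeR on the 2 groups only and with the replicate block, 5 with DESeq2 and 6 with limma voom.

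Genes that IL-1 is known to induce in many cells, which other cytokines induce too, had the largest median of these lists with MPTP in Cre- mice. Of 21 tested, 18 rose and 0 fell in Cre- mice (median 4.64), where 3.18% of all genes were called. In Cre+ mice edgeR called 0 (0% of all genes), with 10 at an unadjusted p under 0.05 and a median of 1.48. DESeq2 called 5 there (0.441% of all genes) and limma voom 3 (1.52%). Under MPTP 11 were lower in Cre+ than in Cre- mice (median -2.61), where 1.54% of all genes were called. The edgeR test of whether the response to MPTP differed between genotypes called 0 of the 21, where 0.0103% of all genes were called. In it 13 were at an unadjusted p under 0.05. A response that differed between the genotypes was thus not shown for any gene of the list in this fit. By adjusted p the first 5 in Cre- mice were Icam1 (4.07), Lcn2 (9.67), Ptges (1.84), Selp (6.40) and Nfkbiz (1.83), and under MPTP between the genotypes Ptges (-1.73), Icam1 (-2.53), Nfkbiz (-1.49), Nfkbia (-2.41) and Socs3 (-3.19). Lcn2 was at 0.159 to 0.986 CPM in the Cre- Saline libraries, so its fold change rests on a low reference. The 11 calls between the genotypes became 2 without Cre+ MPTP replicate 1 or 3, 3 without replicate 4, 18 without replicate 2 of that group, 7 without replicate 2 or 3 of either saline group, and 0 with edgeR on the 2 groups only or with the replicate block. In Cre+ mice 1 gene of the list was called when Cre- MPTP replicate 1 or Cre+ MPTP replicate 2 was left out.

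**Figure D4:**
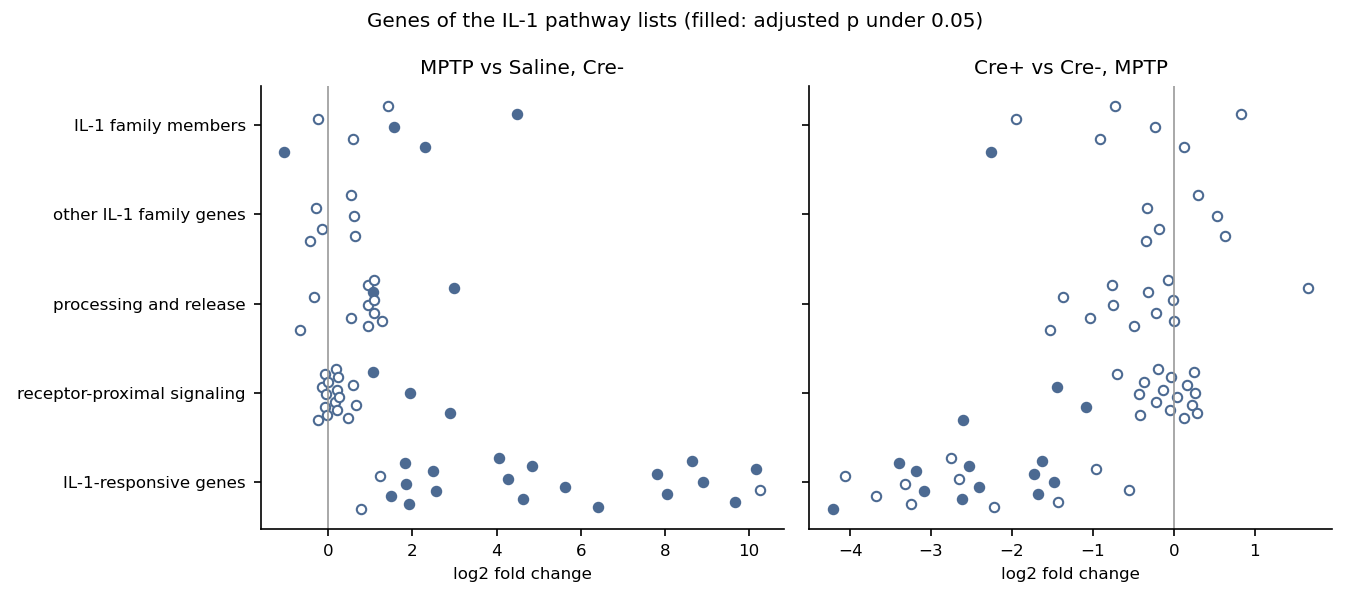
Log2 fold change (x axis) of each tested gene of the 5 lists (y axis, Il1rn left out), for MPTP in Cre- mice and for Cre+ against Cre- mice under MPTP, with filled points at an adjusted edgeR p under 0.05. IL-1-responsive genes hold 18 and 11 filled points, receptor-proximal genes 3 and 3.

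Cell type markers also differed between the groups. The calls of markers stand beside 3.18% of all genes called for MPTP in Cre- mice and 1.54% for genotype under MPTP. Of the 10 neutrophil markers, 6 passed the filter on low counts. Retnlg reached 10 counts only in the Cre- MPTP libraries (14, 15 and 155 counts), and S100a8 had at most 9 counts in any saline library. As for Il18rap and Il1rn, the place of these markers in the test depended on their level with MPTP. The 10 neutrophil markers summed to 3.87 to 5.26 CPM in Cre- Saline and to 18.7, 15.1 and 76.6 CPM in Cre- MPTP, and 4 of the 6 tested rose in Cre- mice and were lower in Cre+ mice under MPTP. Cre- MPTP replicate 3, with the highest sum, was also highest for Il1r2, Il18rap and Il1b. Replicate 2, with the lowest sum of that group, was highest for Il1rn (3.33 CPM), Il1r1 (19.8 CPM), Il1a and Il1rl1. With MPTP, Cre- libraries had 0, 0 and 0.0990 CPM of Ly6g, and between 0 and 2 of the 10 markers were at 0. Of 10 microglia markers 4 fell and 0 rose in Cre- mice (summed CPM 264 to 304 with saline and 177 to 241 with MPTP), and of 8 oligodendrocyte markers 3 fell (12856 to 17787 against 9461 to 12159 CPM), alongside Il33. Of 8 astrocyte markers 1 rose, with sums of 3649 to 4229 and 2602 to 4507 CPM, and 1 endothelial marker of 8, Tek, fell. In Cre+ mice the oligodendrocyte sums also did not overlap, at 15523 to 17393 CPM with saline and 11468 to 14860 CPM with MPTP. The part of these markers in the members' changes was not tested, and in whole tissue fewer cells of a type and less RNA per cell cannot be told apart.

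**Figure D5:**
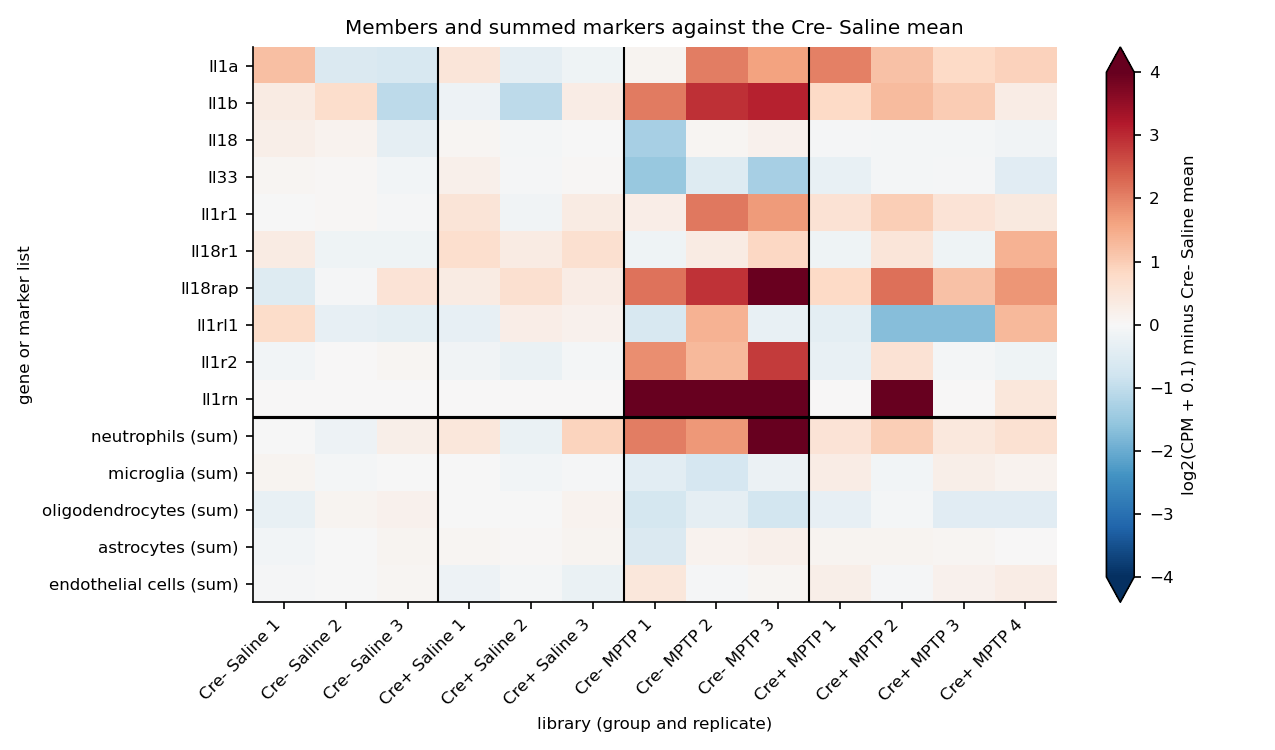
Color shows log2(CPM + 0.1) minus the Cre- Saline mean for the 10 members and 5 summed marker lists (rows) in the 13 libraries (columns, groups separated by lines). Il1rn, Il18rap, Il1b and Il1r2 are raised in the Cre- MPTP columns with the neutrophil sum, and Il33 is lowered there with the oligodendrocyte sum. In the Cre+ MPTP columns the oligodendrocyte sum is at -0.449 to -0.076 and Il33 at -0.448 to -0.058.

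The genes with the most similar profiles over the 13 libraries (Pearson r of log2 CPM, which share library, depth and groups) were Hmox1, S100a8 and Serpina3m for Il1r2 (0.961, 0.961 and 0.959) and Slc22a8, Opalin and Tll2 for Il33 (0.970, 0.967 and 0.965). For Il18rap they were Birc3, Slfn1 and Fcgr2b (0.968, 0.962 and 0.951), for Il1r1 Itprid2, Gcnt2 and Rin2 (0.957, 0.951 and 0.949), and for Il1rn Cxcl2, Cybb and Mmp3 (0.992, 0.986 and 0.981). Il18 was most like Stx12, Exosc9 and Ufsp2 (0.988, 0.988 and 0.984), and Il1a most like Purb, Uhrf2 and Ccl12 (0.893, 0.892 and 0.870). Il1rl1, with at most 19 counts, reached 0.787 with Stamos, 0.785 with Cacna1s and 0.783 with Gm16062. Il1r2 and Il33 ran in opposite directions over the libraries (r = -0.87), and Il1r2 and Il1rn together (r = 0.87).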

How the data were processed

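RNA-Seq had been performed on total RNA of the midbrain with a stranded kit. According to the labels and methods, the authors trimmed the reads (Trimmomatic 0.36), mapped them to GRCm38 (STAR 2.5.2b) and counted unique hits per gene (featureCounts, Subread 1.5.2). The deposited values are these raw counts per gene, without normalization. Whether counting used strand is not given in the sources used here, and the DESeq2 formula of the study is not stated.

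Symbols and positions came from GENCODE M21 and matched 49056 of 49315 gene IDs. edgeR 4.0.16 (R 4.3.3) was fitted to all 13 libraries with TMM, a filter that asked 3 or more libraries for 10 or more counts (19360 genes), 1 term per group and the quasi-likelihood test, with Benjamini-Hochberg adjustment over all genes and a threshold of 0.05. The SE is the absolute log2 fold change divided by the square root of F. The edgeR p-values set a difference between groups against the spread between mice, which is estimated over all 4 groups and shared in part across genes. Intervals (95%, exact) and floors (3 counts) cover counting error only. Ratios were compared with exact permutation tests.

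Alternatives were DESeq2 1.42.0 over 13 libraries or 2 groups, limma 3.58.1 voom with quality weights, DESeq2 size factors, no filter or 4 libraries, edgeR on 2 groups, a replicate block, each library left out, and, chosen after seeing the data, Cre- MPTP replicate 1 and Cre+ MPTP replicate 4 left out together. The members and lists were chosen with earlier results of these data known. Named genes were the members, up to 5 called genes per list and comparison by adjusted p, and the 3 most similar profiles per member; marker genes, Ripk3, Il18bp, Il1rap, Il36b and Il1f10 were named after their values were seen. The fit was tested on simulated data. Sequences came from RefSeq (GRCm38.p6). Protein sequences were not used here.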

Additional observations from a re-analysis of the deposited data

Results flagged for a closer look

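Among the 14 sets of 4 Cre+ MPTP values checked (10 members and 4 ratios), 1 held a library far from the others. Il1rn was at 1.79 CPM in Cre+ MPTP replicate 2 and at 0, 0 and 0.0382 CPM in replicates 1, 3 and 4, a gap of 0.979 of the range, above the critical value of 0.829 for 4 values. For normally distributed values chance flags about 1 in 20 such sets, so 1 flag among 14 can arise by chance. The counts of Il1rn here (0, 32, 0 and 1) are not of that kind, and the rate may not hold for them. The same library was the highest of its group for Il1r2 (0.951 CPM), Il1r1 (9.12 CPM), Il18rap (0.559 CPM), Il1b (0.392 CPM) and Lcn2 (153 CPM), and its neutrophil markers summed to 8.95 CPM against 6.08 to 6.91 CPM in the others. It had the lowest total of its group, 17713289 counts. No cause was tested.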

How the results depend on the processing

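The number of members called for MPTP in Cre- mice was 4. It was 1 (Il1rn) with edgeR on the 2 groups only, where 6 members were tested and 0.600% of all genes were called. DESeq2 on the 2 groups only called 3 of 6 members tested (Il1r1, Il1r2 and Il1rn) and 3.15% of all genes. Over the fits without 1 library the number of members called ranged from 2 to 5. For the genotypes under MPTP the number was 1, with 2 for DESeq2 on 13 libraries (4.44% of all genes called), 5 for limma voom (6.32%), 0 for edgeR on 2 groups and 0 with the replicate block (0% each), 3 (2.91%) with Cre- MPTP replicate 1 and Cre+ MPTP replicate 4 both left out, and 0 to 3 over single libraries left out (0.212% to 9.51%). For the interaction it was 0, with 3 for limma voom (3.56%), 1 with both libraries left out (1.15%) and 0 to 1 over single libraries (0% to 1.03%). It stayed 0 for MPTP in Cre+ mice and for genotype under Saline in every fit. The replicate block gave 3 calls for MPTP in Cre- mice (Il18rap, Il1r2 and Il33) and 0 elsewhere. Same-numbered libraries correlated between -0.18 and 0.18, and libraries with different numbers between -0.18 and 0.24. No pairing by number was seen, though these correlations cannot exclude a weak one.

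Directions reversed for uncalled members only. Il18 with MPTP in Cre- mice was 0.059 with limma voom, ran from -0.47 to 0.10 over single libraries left out (0.10 without Cre- MPTP replicate 1) and was 0.11 without both libraries, and between genotypes under MPTP -0.19, -0.21 and -0.19. Il1a between genotypes ran from -0.62 to 0.16 (0.16 without Cre- MPTP replicate 2). In Cre+ mice Il1r2 ran from -0.023 (without Cre+ MPTP replicate 2) to 0.33, and Il1rl1 from -0.32 to 0.31. Log2 ratios with no called difference also reversed. Il1rn to Il1b with MPTP in Cre+ mice was -0.017 with a pseudocount of 1 and ran from -1.30 to 0.93 over single libraries left out, and between genotypes under Saline Il1rn to Il1b, Il1rl1 to Il33 and Il18bp to Il18 ran from -0.46 to 1.60, from -0.23 to 0.45 and from -0.017 to 0.36. Over the alternatives other than single libraries, calls with MPTP in Cre- mice and between genotypes under MPTP numbered 16 to 21 and 0 to 20 for IL-1-responsive genes, 0 to 10 and 0 to 2 for processing and release, 2 to 7 and 0 to 6 for receptor-proximal signaling, and 0 to 2 and 0 to 1 for other family genes. In Cre+ mice they numbered 0 to 5, 0 to 1, 0 and 0. Of all genes these fits called 0.600% to 13.6% for MPTP in Cre- mice, 0% to 6.32% between genotypes and 0% to 1.74% in Cre+ mice. The causes were not tested. Genes with few counts (Il18r1, Il1rl1, Il1b, and Il18rap with saline) are limited by depth.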

Other observations

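Il36g, another IL-1 family ligand, which is best known from epithelium, was outside the filter on low counts. It had 4 to 39 counts in the Cre- MPTP libraries (0.679 ± 0.530 CPM, SD, n = 3) and 0 or 1 count in each of the other 10 libraries, and was chosen for mention after its values were seen.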
